A study of Mus musculus with 34 samples.

Results

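Sin3, CoREST and NCoR are corepressor assemblies that, like NuRD, bring histone deacetylases to chromatin. The transcripts of 9 of their genes were followed in mouse embryonic stem (ES) cells lacking one or all of the NuRD subunits Mta1, Mta2 and Mta3. The genes were chosen by name as core subunits, 3 of the Sin3 complex (Sin3a, Sin3b, Sap30), 4 of the CoREST complex (Kdm1a, Rcor1, Rcor2, Rcor3) and 2 of the NCoR complex (Ncor1, Hdac3). All 9 were found by Ensembl identifier among the 48709 genes counted in the Control and Mta123KO libraries and among the 22018 genes counted in the single mutants. All 9 passed the filter on low counts in every comparison.

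The 3 assemblies are recruited by DNA-bound repressors and differ in their scaffolds and enzymes. Sin3a and Sin3b are paralogous scaffolds that hold Hdac1 and Hdac2, the deacetylases also found in NuRD, and Sap30 is a small subunit that helps to bridge the scaffold to the deacetylases. In CoREST, a protein of the Rcor family couples Hdac1 or Hdac2 to Kdm1a (LSD1), a demethylase of histone H3 lysine 4, and the complex is best known for silencing neuronal genes with the repressor REST. Ncor1 is the scaffold through which nuclear receptors and other factors recruit Hdac3. Sin3a, Kdm1a and Hdac3 are needed in early mouse development, and Kdm1a activity is known in ES cells for the silencing of enhancers as the cells differentiate.

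The cells were of strain 129/Ola and the libraries fell into 10 groups. Control and Mta123KO cells (labelled so for the loss of Mta1, Mta2 and Mta3) gave 4 libraries under each of 2 culture labels, 2i+LIF (2iL, the inhibitors and cytokine that hold cells in the naive state) and 48 h in N2B27 medium after their withdrawal, and each 4 were 2 libraries from each of 2 numbered lines. By the study's account of its lines, the Control cells are not wild type, since they carry a deleted Mta1 allele and floxed Mta3 alleles, and the Mta123KO lines came from Cre deletion of floxed Mta3 in cells already lacking Mta1 and Mta2. Mta1_del/del, Mta2_KO and Mta3_del/del cells and their references Mta1_flox/flox, Mta2_WT and Mta3_flox/flox gave 3 libraries each, all labelled 2iL. The single-mutant libraries were single-end and the others paired-end, so levels were not compared between the 2 sets. Nothing in the labels says that replicates came from separate cultures, and libraries of 1 line are not independent, so p-values over libraries measure a spread that is partly technical.

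The culture labels of the Control and Mta123KO libraries went against their own markers, and the names of their count tables give the opposite culture. Nanog, a naive pluripotency factor, stood at 48.4 to 83.9 CPM (counts scaled to library size) in the 4 Control libraries labelled 2iL and at 861 to 1016 CPM in those labelled 48 h. Dnmt3b, a marker of primed cells, stood at 678 to 1175 CPM and at 69.5 to 81.1 CPM. All groups are therefore named as labelled, and if the labels are exchanged, the 2 comparisons of Mta123KO with Control exchange their names and every culture change below turns its sign.

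Total gene counts ran from 13105820 to 57602285 per library. Mta2 fell from 111 to 202 CPM over the Control libraries to 4.72 to 10.4 CPM over the Mta123KO libraries, and from 232 to 247 CPM in Mta2_WT to 9.24 to 11.9 CPM in Mta2_KO. Mta3 stood at 36.4 to 74.9 CPM in Control against 9.52 to 23.8 CPM in Mta123KO, and at 60.6 to 70.5 CPM in Mta3_flox/flox against 9.65 to 12.8 CPM in Mta3_del/del. Mta1 transcript remained, at 23.4 to 48.6 CPM in Control against 15.6 to 30.0 CPM in Mta123KO and at 69.0 to 105 CPM in Mta1_flox/flox against 38.5 to 48.1 CPM in Mta1_del/del. Pou5f1, the ES cell marker Oct4, was at 233 CPM or more in all 16 Control and Mta123KO libraries. The 6 trophoblast markers (Krt8, Krt18, Gata3, Elf5, Cdx2, Eomes) summed to 15.4 to 20.2 CPM in the Control libraries, to 69.0 and 73.2 CPM in Mta123KO line 2 and to 336 and 375 CPM in line 1 labelled 2iL, and to 137 and 143 CPM in line 2 and 672 and 712 CPM in line 1 labelled 48 h.

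On the scale of CPM per kilobase of exon, the 9 genes differed widely in the 4 Control libraries labelled 2iL. Sin3a was the most abundant at 46.5 ± 2.51 CPM per kilobase (SD, n = 4), followed by Kdm1a at 40.0 ± 2.81, Rcor2 at 34.9 ± 2.58 and Sap30 at 33.9 ± 2.46. Ncor1 (20.4 ± 0.268), Hdac3 (13.6 ± 0.401), Sin3b (8.64 ± 0.663) and Rcor1 (6.02 ± 0.186) were lower, and Rcor3 was at 0.427 ± 0.0472. Among neighbours in this order, the libraries of Kdm1a and Rcor2 overlapped and so did those of Rcor2 and Sap30, while all other neighbouring pairs were apart. With the length of the longest transcript in place of all exons, Kdm1a came first at 68.5 ± 4.80, Sin3b (15.4 ± 1.19) stood level with Hdac3 (15.4 ± 0.454) and Rcor3 stayed last at 1.53 ± 0.17, so the places of Kdm1a and Sin3b in the order depended on the isoforms counted.

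Among cells labelled 2iL, 6 of the 9 genes differed between Mta123KO and Control, 1 higher (Sin3b) and 5 lower (Rcor2, Sap30, Sin3a, Kdm1a, Ncor1), in edgeR's quasi-likelihood test with Benjamini-Hochberg adjustment over 21651 genes. Of all genes tested, 27.1% were higher and 24.2% lower at that threshold. Among cells labelled 48 h, none was higher and 6 were lower (Rcor2, Sap30, Rcor3, Sin3a, Ncor1, Kdm1a), against 26.6% of 21079 genes higher and 23.4% lower. Counted in either direction, 6 of 9 is not far from the background of 51.3% and 50% of all genes. By direction, more of the 9 were lower than higher under both labels, while more of all genes were higher than lower. The 9 were not tested as a set and are described one by one. Rcor2 alone also passed the study's second threshold, an absolute log2 fold change above 1, under both labels, as did 20.6% of all genes under the label 2iL and 20.0% under the label 48 h. The median log2 fold change of the 9 genes was -0.34 and -0.29, and that of all genes 0.01 in both.

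The 2 Mta123KO lines differed from each other in most of the 9 genes. With the counts of both libraries of a line added up, so that 2 lines were compared with 2, none of the 9 passed under the label 2iL (adjusted p 0.0876 to 0.82) and Rcor2 alone passed under the label 48 h (adjusted p = 0.014, edgeR), with fold changes close to those above. In that comparison 9.21% of all genes were higher and 6.15% lower under the label 2iL, and 10.7% and 6.35% under the label 48 h. The calls above therefore rest on treating the 2 libraries of a line as separate samples, except that of Rcor2 under the label 48 h. When each Mta123KO line was set alone against the 4 Control libraries, Rcor2, Sap30, Sin3a, Sin3b and Kdm1a passed in both lines with the same sign under the label 2iL. Rcor2, Sap30 and Rcor3 did so under the label 48 h. Here and below, p-values of 1 line alone hold no spread between Mta123KO lines and do not test the genotype over lines. The comparisons of the 2 lines also share their Control libraries. Many genes passed in those comparisons, 31.4% of all genes higher and 29.7% lower for line 1 and 26.8% and 25.1% for line 2 labelled 2iL, and 29.8% and 27.0% for line 1 and 25.1% and 22.5% for line 2 labelled 48 h.

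**Figure D1:**
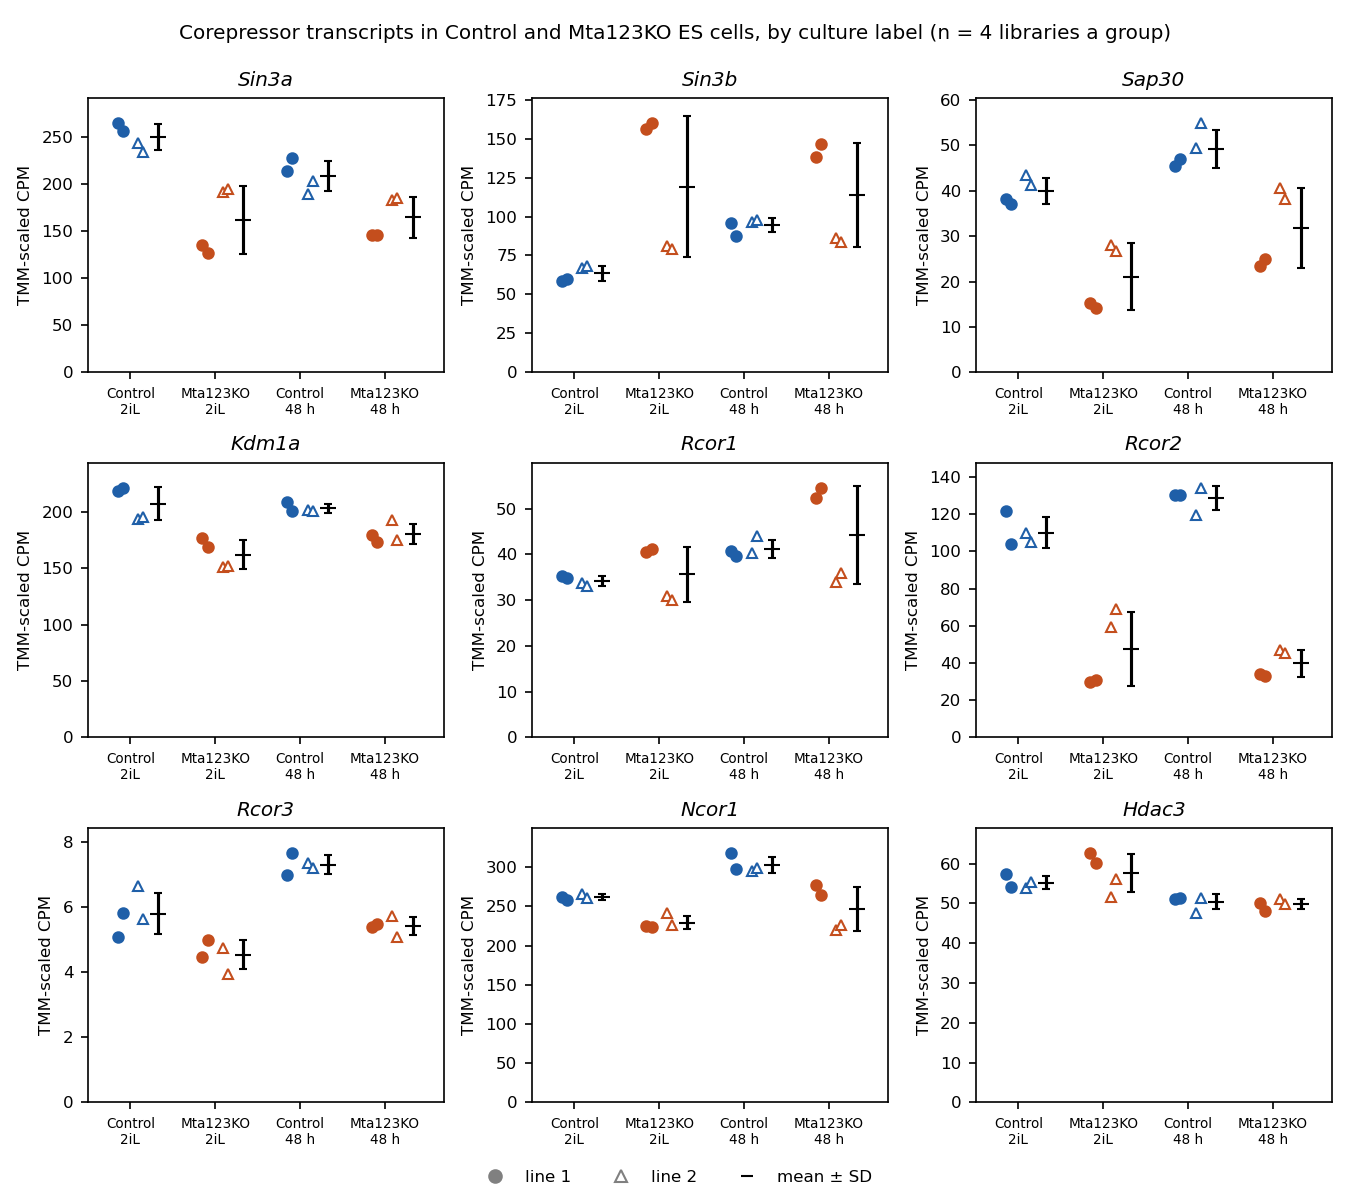
TMM-scaled CPM (counts scaled to library size, linear axes from 0) of the 9 corepressor genes in the 16 Control and Mta123KO libraries, by culture label. Filled circles are libraries of line 1, open triangles those of line 2, and bars the mean ± SD of 4 libraries. Rcor2 lies lower in every Mta123KO library than in any Control library. Under both labels the 2 Mta123KO lines lie apart in Rcor2, Sin3a, Sin3b, Sap30, Rcor1 and, only narrowly labelled 2iL, Ncor1.

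Rcor2, the CoREST family member of ES cells, fell the most. In Control labelled 2iL it stood at 122 and 104 CPM in line 1 and at 110.1 and 105 CPM in line 2. In Mta123KO labelled 2iL it stood at 30.0 and 31.1 CPM in line 1 and at 59.5 and 69.1 CPM in line 2. No library of one group reached the range of the other, and line 1 retained 27.7% of the Control mean and line 2 58.4%. The log2 fold change was -1.20 (SE 0.26, adjusted p = 0.0045). Under the label 48 h the Control libraries held 130.1 and 130.5 CPM in line 1 and 119 and 134 CPM in line 2, and the Mta123KO libraries 34.3 and 33.0 CPM in line 1 and 46.8 and 45.2 CPM in line 2. Here the 2 lines were closer, at 26.2% and 35.8% of the Control mean, and the log2 fold change was -1.68 (SE 0.12, adjusted p = 1.1e-05). The order of the groups was Control labelled 48 h (mean 129 CPM), Control labelled 2iL (110.1), Mta123KO labelled 2iL (47.4) and Mta123KO labelled 48 h (39.8), of which the last 2 overlapped in their libraries.

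Rcor2 lies at chr19:7267325-7275225 on the plus strand (GRCm38). The bases upstream of it are shown because it is the gene with the largest change. The window of 250 bases before its RefSeq start (GRCm38.p6) holds 17 CpG dinucleotides, against a median of 6 over the same window of 32851 mouse promoters, and 1 GC box and 1 E-box. Motifs were searched on both strands as GGGCGG (GC box, in 32.7% of all promoters), CCAAT (33.8%), CACGTG (E-box, 6.0%) and CCGGAAG (ETS type, 6.9%), and a match is a description of letters, not of a bound site. Both matches fall in the last 69 bases, which the Ensembl gene model places in the first exon and which are not printed, so the 181 bases at chr19:7267144-7267324 (plus strand) carry no capitals.
Rcor2: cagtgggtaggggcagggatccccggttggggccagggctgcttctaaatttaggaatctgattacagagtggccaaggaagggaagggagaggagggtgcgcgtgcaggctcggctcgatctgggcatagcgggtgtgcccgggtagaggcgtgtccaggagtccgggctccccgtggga

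Kdm1a, the demethylase of the complex (chr4:136550540-136602723, minus strand), was lower by a smaller amount. It stood at 218, 221, 194 and 196 CPM in Control labelled 2iL and at 177, 169, 151 and 152 CPM in Mta123KO (log2 fold change -0.34, SE 0.08, adjusted p = 0.00531), with no overlap. Scaled to the spiked-in ERCC RNAs it did not pass labelled 2iL (-0.30, adjusted p = 0.0918) or labelled 48 h (-0.36, adjusted p = 0.164). Under the label 48 h it stood at 201 to 209 CPM in Control and at 174 to 193 CPM in Mta123KO (-0.16, SE 0.06, adjusted p = 0.0347). The call labelled 48 h was also lost when any of 6 single libraries was left out, 3 of them Control libraries (1_1, 2_1, 2_2) and 3 Mta123KO libraries (1_1, 1_2, 2_2), with adjusted p from 0.0562 to 0.0844.

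Rcor1, the family member of most tissues (chr12:111039351-111115901, plus strand), did not pass in either comparison (log2 fold change 0.08, SE 0.11, adjusted p = 0.594 labelled 2iL and 0.11, SE 0.16, adjusted p = 0.572 labelled 48 h), and its 2 Mta123KO lines lay on opposite sides of Control. Labelled 2iL, the Control libraries held 33.0 to 35.4 CPM, line 1 of Mta123KO 40.6 and 41.2 CPM and line 2 30.8 and 30.1 CPM. Labelled 48 h, the Control libraries held 39.5 to 43.9 CPM, line 1 52.3 and 54.5 CPM and line 2 34.01 and 36.0 CPM. Against Control labelled 48 h, line 1 alone was higher by 0.39 on the log2 scale (adjusted p = 0.00158) and line 2 alone was lower, at -0.22 (adjusted p = 0.035). Rcor3 (chr1:192098546-192138062, minus strand) was the least abundant member, at 5.10 to 6.65 CPM in Control and 3.94 to 4.99 CPM in Mta123KO labelled 2iL (-0.34, SE 0.13, adjusted p = 0.0502). It passed there with DESeq2 (-0.35, adjusted p = 0.0261), with RLE size factors (-0.34, adjusted p = 0.0459), with all 16 libraries in 1 fit (-0.36, adjusted p = 0.0105) and without Control library 1_1 (-0.40, adjusted p = 0.044). Rcor3 stood at 7.0 to 7.68 CPM and 5.08 to 5.74 CPM labelled 48 h (-0.42, SE 0.10, adjusted p = 0.0064), where the groups did not overlap and both lines were close to 74% of Control, at 74.3% and 73.9%.

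The make-up of the Rcor family shifted with these changes. Per kilobase of exon, Rcor2 made up 83.2% to 85.4% of the summed Rcor1, Rcor2 and Rcor3 level in the 8 Control libraries, 56.0% to 79.7% in Mta123KO labelled 2iL and 51.1% to 69.8% in Mta123KO labelled 48 h. Rcor1 made up 13.8% to 15.6% in Control and 19.3% to 46.9% in Mta123KO. Rcor3 made up 2.097% or less in all 16 libraries, or 6.72% or less with the length of its longest transcript. The share of Rcor2 was lower in every Mta123KO library than in any Control library with either length.

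Sin3a and Sin3b, the 2 scaffolds of the Sin3 complex, moved in opposite directions in Mta123KO labelled 2iL. Sin3a (chr9:57072040-57128366, plus strand) stood at 265, 257, 244 and 235 CPM in Control and at 135 and 127 CPM in line 1 and 192 and 195 CPM in line 2 of Mta123KO (log2 fold change -0.61, SE 0.14, adjusted p = 0.00677), with no overlap. Sin3b (chr8:72723285-72758201, plus strand) stood at 58.6, 60.2, 67.0 and 68.4 CPM in Control and at 156 and 160.1 CPM in line 1 and 81.3 and 78.9 CPM in line 2 (0.92, SE 0.24, adjusted p = 0.0104), again with no overlap. Line 1 held 249% of the Control mean of Sin3b and line 2 126%.

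Under the label 48 h Sin3a was lower, at 190.3 to 228 CPM in Control, 146 and 146 CPM in line 1 and 183 and 185 CPM in line 2 (-0.33, SE 0.10, adjusted p = 0.0213). That call was lost without Control library 1_2 (adjusted p = 0.0512) or Mta123KO library 1_1 (adjusted p = 0.0543). Sin3b did not pass there (0.28, SE 0.18, adjusted p = 0.232): Control held 87.6 to 97.7 CPM, line 1 138 and 147 CPM and line 2 86.4 and 83.7 CPM. Set alone against Control, line 1 was higher by 0.61 (adjusted p = 7.92e-05) and line 2 stood at -0.14 (adjusted p = 0.125).

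Per kilobase of exon, Sin3b made up 13.9% to 17.6% of the summed Sin3a and Sin3b level in Control labelled 2iL, 45.9% and 48.1% in line 1 and 23.6% and 22.9% in line 2 of Mta123KO. Labelled 48 h it made up 21.9% to 27.0% in Control, 41.0% and 42.4% in line 1 and 25.7% and 24.9% in line 2. With the longest transcripts as lengths the shares of line 1 labelled 2iL were 59.4% and 61.5%, so which of the 2 scaffolds was the more abundant there depended on the length used.

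**Figure D2:**
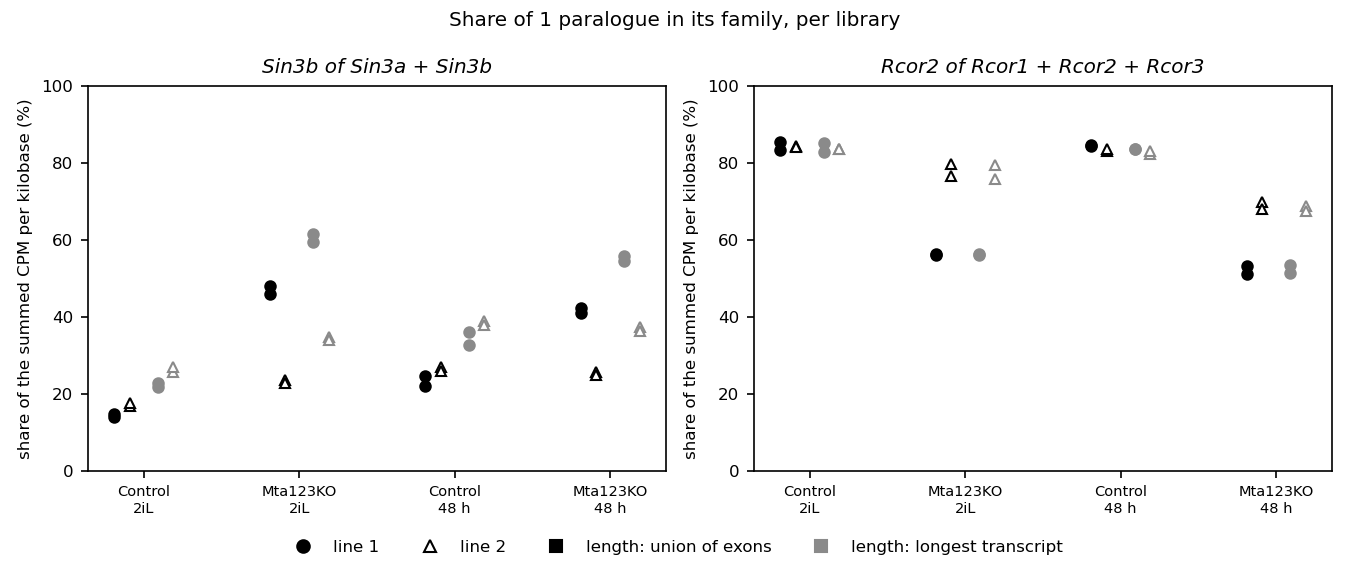
Share (in percent, axis from 0 to 100) of Sin3b in the summed Sin3a and Sin3b level, and of Rcor2 in the summed Rcor level, in each of 16 libraries, from CPM per kilobase. Black symbols use all exons and grey symbols the longest transcript as length, filled circles are line 1 and open triangles line 2. The Rcor2 share lies between 83.2% and 85.4% in Control and at 79.7% or less in Mta123KO with all exons.

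Sap30 (chr8:57482707-57487860, minus strand) fell under both labels. Labelled 2iL it stood at 38.1, 37.0, 43.4 and 41.2 CPM in Control, at 15.3 and 14.1 CPM in line 1 and at 28.2 and 26.6 CPM in line 2 of Mta123KO (log2 fold change -0.91, SE 0.22, adjusted p = 0.00787). Labelled 48 h it stood at 45.4, 46.9, 49.4 and 54.9 CPM in Control, at 23.5 and 24.9 CPM in line 1 and at 40.6 and 38.1 CPM in line 2 (-0.62, SE 0.18, adjusted p = 0.0169). The groups did not overlap, and line 1 retained 36.8% and 49.2% of the Control mean against 68.6% and 80.1% in line 2.

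The promoter windows of the 3 Sin3 genes are shown because the genes moved in different directions. Each holds 1 GC box, and that of Sin3a also holds 2 CCAAT boxes, with matches in capitals. The windows hold 12, 10 and 18 CpG dinucleotides and lie at chr9:57071790-57072039 (plus strand, the first of 2 RefSeq starts of Sin3a), chr8:72723020-72723269 (plus strand) and chr8:57487861-57488110 (minus strand), from RefSeq on GRCm38.p6. The window of the second Sin3a start (chr9:57076126-57076375) holds 3 GC boxes, 3 CCAAT boxes and 19 CpG dinucleotides and is not printed.
Sin3a: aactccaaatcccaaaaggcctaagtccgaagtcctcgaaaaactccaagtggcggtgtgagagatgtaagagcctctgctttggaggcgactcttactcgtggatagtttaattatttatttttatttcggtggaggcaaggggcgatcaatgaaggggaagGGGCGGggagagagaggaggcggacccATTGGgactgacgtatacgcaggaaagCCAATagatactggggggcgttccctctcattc
Sin3b: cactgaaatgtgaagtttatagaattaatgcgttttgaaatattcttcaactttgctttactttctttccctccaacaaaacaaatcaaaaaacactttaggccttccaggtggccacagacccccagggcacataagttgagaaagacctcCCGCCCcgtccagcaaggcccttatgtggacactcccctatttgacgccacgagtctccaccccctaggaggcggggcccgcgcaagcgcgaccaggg
Sap30: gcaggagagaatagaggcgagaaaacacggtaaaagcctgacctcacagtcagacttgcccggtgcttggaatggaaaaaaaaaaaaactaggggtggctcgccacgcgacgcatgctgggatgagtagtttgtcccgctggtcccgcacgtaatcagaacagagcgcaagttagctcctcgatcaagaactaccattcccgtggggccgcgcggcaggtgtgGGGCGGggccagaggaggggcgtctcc

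Ncor1, the NCoR scaffold (chr11:62316426-62458541, minus strand), was slightly lower under both labels. Labelled 2iL it stood at 258 to 266 CPM in Control and 224 to 242 CPM in Mta123KO (-0.17, SE 0.05, adjusted p = 0.0187), and the call was lost without Control library 2_1 (adjusted p = 0.0518) or Mta123KO library 1_1 (adjusted p = 0.0523). Labelled 48 h it stood at 296 to 318 CPM in Control, at 277 and 265 CPM in line 1 and at 219 and 226 CPM in line 2 (-0.29, SE 0.09, adjusted p = 0.0205), and the call was lost without Mta123KO library 2_2 (adjusted p = 0.0515). With spike-in scaling Ncor1 did not pass under either label (-0.14, adjusted p = 0.371, and -0.47, adjusted p = 0.0734). Hdac3, its deacetylase (chr18:37935844-37955016, minus strand), overlapped between the groups under both labels, at 53.9 to 57.4 CPM against 51.6 to 62.7 CPM and at 47.7 to 51.5 CPM against 48.2 to 51.2 CPM (0.08, SE 0.07, adjusted p = 0.373, and -0.01, SE 0.06, adjusted p = 0.918).

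Rcor2, Sap30, Sin3a and Sin3b changed more in line 1, which had the larger trophoblast marker sum. Kdm1a labelled 2iL fell more in line 2 (73.1% of the Control mean against 83.4% in line 1), as did Ncor1 labelled 48 h (73.6% against 89.5%). Under the other label both fell slightly more in line 1 (90.5% in line 2 against 86.9%, and 89.3% against 85.8%). With 2 lines, any gene that differs between them lines up with this sum. All 6 of those markers were higher in Mta123KO labelled 2iL and 4 of 6 labelled 48 h, against 27.1% and 26.6% of all genes. The summed naive markers also moved with genotype, at 147 to 231 CPM in Control and 392 to 529.9 CPM in Mta123KO labelled 2iL and at 3571 to 3926 CPM and 1868 to 2758 CPM labelled 48 h. The part of these markers in the corepressor changes was not tested. In bulk libraries fewer cells of a type and less RNA per cell cannot be told apart. Both kits named for the study keep strand, but the strand setting of the count is not given in the sources used here, and 205 exon bases of Sin3a overlap the antisense gene Man2c1os (mean 1030 counts per library against 9106 of Sin3a), 667 of Rcor3 overlap Gm26879 (40.3 against 265) and 82 of Ncor1 overlap Pigl (1818 against 11984).

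By the rule that takes the 3 members with the largest change in Mta123KO labelled 2iL, the genes whose log2 CPM correlated best with them over the 16 libraries, among 17067 genes, were Rbm8a2 (Pearson r = 0.991), Gm9531 (0.987) and Acly (0.986) for Rcor2, Arhgap21 (0.981), Sqstm1 (0.979) and Hic2 (0.976) for Sin3b, and Stmn2 (0.981), Gcsh (0.972) and Alg11 (0.969) for Sap30. The 16 libraries come from 4 lines and share groups, so these values only describe likeness.

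Other subunits of the same assemblies also moved in both directions in Mta123KO. Of 13 other Sin3 subunits, 3 were higher and 4 lower labelled 2iL (median log2 fold change 0.04) and 2 higher and 3 lower labelled 48 h (-0.07). Of all genes, 27.1% were higher and 24.2% lower labelled 2iL, and 26.6% and 23.4% labelled 48 h, so these counts lie near the background. Brms1l rose by 1.29 (SE 0.11, adjusted p = 3.38e-05) and 0.86, Sinhcaf fell from 338 to 365 CPM to 91.98 to 218 CPM (-1.16, SE 0.29, adjusted p = 0.00823) and by 0.86, Ing1 fell by 0.41 and 0.50, and Ing2 fell by 0.59 labelled 2iL and stood at -0.27 (adjusted p = 0.0741) labelled 48 h. Brms1l and Sinhcaf are accessory subunits, and Ing1 and Ing2 read methylated lysine 4 of histone H3.

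Of 10 other CoREST subunits and recruiting factors tested, 2 were higher and 4 lower labelled 2iL (median -0.23) and 3 higher and 4 lower labelled 48 h (0.00). The shares of all genes were 27.1% higher and 24.2% lower labelled 2iL, and 26.6% and 23.4% labelled 48 h. Rest, the repressor that recruits CoREST to neuronal genes, fell under both labels, from 324 to 376 CPM in Control to 141 to 170 CPM in Mta123KO (log2 fold change -1.16, SE 0.08, adjusted p = 1.13e-05) and from 372 to 454 CPM to 192 to 211 CPM (-1.04, SE 0.07, adjusted p = 8.77e-06). Hmg20b, a subunit that binds DNA, fell by 0.98 and 0.70. Phf21a, which binds unmethylated lysine 4 of histone H3, fell by 1.52 (SE 0.16, adjusted p = 7.76e-05) labelled 2iL and rose by 0.71 (SE 0.08, adjusted p = 9.23e-05) labelled 48 h. Gse1 rose by 1.05 (adjusted p = 0.00115) labelled 2iL and stood at 0.55 (adjusted p = 0.086) labelled 48 h.

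Of 14 neuronal target genes of REST and CoREST tested labelled 2iL, 1 was higher and 7 lower (median -0.61), and of 11 tested labelled 48 h, 2 were higher and 4 lower (-0.29), against 27.1% of all genes higher and 24.2% lower labelled 2iL and 26.6% and 23.4% labelled 48 h. The 3 neural progenitor markers (Sox1, Pax6, Nes) summed to 74.5 to 96.2 CPM in Control and to 32.8 to 42.9 CPM in Mta123KO labelled 2iL, with 2 of the 3 lower, and to 24.5 to 29.0 CPM and 31.2 to 39.4 CPM labelled 48 h, with 1 higher and 1 lower. Their part in the values of the neuronal targets was not tested. Stmn2, a regulator of microtubules, fell from 52.9 to 59.2 CPM to 3.48 to 24.96 CPM (-1.97, SE 0.62, adjusted p = 0.0242) labelled 2iL and by 1.46 labelled 48 h, and Celsr3, a cadherin of growing axons, fell by 2.48 and 2.23. Syt4 and Snap25, of synaptic vesicle release, fell by 3.45 and 2.39 labelled 2iL from at most 3.60 and 1.48 CPM and did not pass the filter on low counts labelled 48 h.

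Of 5 other NCoR subunits and recruiting factors, 3 were higher and 1 lower labelled 2iL (median 0.47) and 1 was higher and 1 lower labelled 48 h (-0.02). For every list in this paragraph, the background was 27.1% of all genes higher and 24.2% lower labelled 2iL. Labelled 48 h it was 26.6% higher and 23.4% lower. Zbtb33 (Kaiso), a factor that binds methylated DNA, rose by 0.47 (SE 0.11, adjusted p = 0.0055) and 0.59 (SE 0.09, adjusted p = 0.000653). Bcl6, a repressor that binds the corepressor, rose by 2.09 labelled 2iL from at most 0.688 CPM and stood at -0.44 (adjusted p = 0.0673) labelled 48 h, Gps2 rose by 0.55 and stood at 0.24 (adjusted p = 0.0805), and the subunit Tbl1xr1 fell by 0.55 and 0.42. Of the 4 genes of the deacetylase core that Sin3 and CoREST in part share with NuRD, Rbbp4 fell by 0.50 and 0.43 and Hdac2 by 0.41 and 0.68 (adjusted p 0.0142 and 0.00618), Rbbp7 stood at 0.39 (adjusted p = 0.0903) and rose by 0.62, and Hdac1 did not pass. Of 6 genes of other deacetylase assemblies or related to them, 3 were higher labelled 2iL and 4 labelled 48 h and none was lower (medians 0.21 and 0.63). Kdm1b, listed as the paralogue of Kdm1a and not as a subunit, rose by 0.98 (SE 0.09, adjusted p = 3.5e-05) and 1.14 (SE 0.14, adjusted p = 0.00022). Elmsan1 rose by 0.84 and 1.09, Rere by 0.27 and 0.49, and Trerf1 stood at 0.16 (adjusted p = 0.115) and rose by 0.77.

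Loss of a single Mta gene was compared with its own reference in libraries labelled 2iL. In Mta2_KO 1 of the 9 genes was higher (Sin3b) and 4 lower (Sap30, Kdm1a, Rcor2, Hdac3), against 23.5% and 24.3% of 15602 genes, and none passed a log2 fold change of 1, as 11.3% of all genes did. In Mta1_del/del none of the 9 was called, with log2 fold changes of -0.23 to 0.19 and adjusted p of 1, but neither was any of 14561 genes (0% higher, 0% lower). In Mta3_del/del none was called, with 8.32% of 15522 genes higher and 7.84% lower. The median log2 fold change of the 9 genes was -0.18, 0.01 and 0.05 in Mta2_KO, Mta1_del/del and Mta3_del/del.

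**Figure D3:**
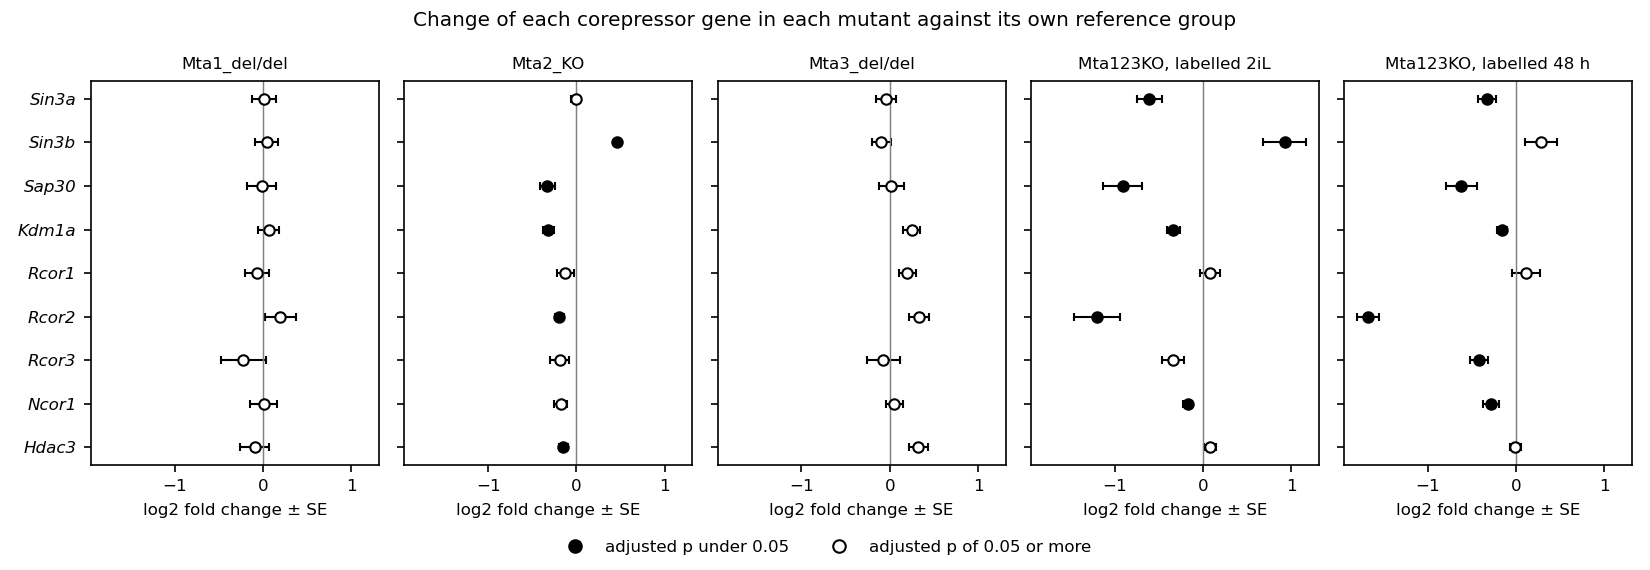
Log2 fold change (linear axis, with standard error) of each of the 9 genes in each mutant against its own reference group. Filled points have an edgeR adjusted p under 0.05. Sin3b is higher and Sap30, Rcor2 and Kdm1a lower in Mta2_KO and in Mta123KO labelled 2iL, and no point is filled in Mta1_del/del or Mta3_del/del. In Mta123KO labelled 48 h the point of Sin3b is open (0.28, adjusted p = 0.232). The culture labels of the Mta123KO libraries went against their markers, so a shared label 2iL does not establish a shared culture.

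In Mta2_KO, Sin3b rose from 123, 122 and 122 CPM to 167, 175 and 166 CPM (log2 fold change 0.46, SE 0.04, adjusted p = 1.4e-05), and Sin3a overlapped between the groups (-0.01, SE 0.05, adjusted p = 0.896). Sap30 fell from 73.3, 68.5 and 75.5 CPM to 57.2, 65.2 and 51.2 CPM (-0.33, SE 0.08, adjusted p = 0.00892). Kdm1a fell from 287, 259 and 249.8 CPM to 213, 224 and 204 CPM (-0.32, SE 0.06, adjusted p = 0.00221). Sin3b, Sap30 and Kdm1a had no overlap between the groups, nor did Rcor2 and Hdac3, whose values follow. How many of all genes had none was not counted.

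Rcor2 fell in Mta2_KO from 168, 158 and 158 CPM to 135, 150.1 and 139.5 CPM (-0.20, SE 0.05, adjusted p = 0.012), and Hdac3 from 69.1, 67.2 and 71.2 CPM to 60.6, 66.0 and 61.3 CPM (-0.15, SE 0.05, adjusted p = 0.0299). Both calls were lost without Mta2_KO library 1 (adjusted p 0.0552 and 0.1) or 3 (0.0555 and 0.11), which left 3 of the 9 genes called, and that of Hdac3 also without Mta2_WT library 1 (0.0756) or 3 (0.0747). Without Mta2_WT library 3, Rcor1 (-0.24, adjusted p = 0.00488) and Ncor1 (-0.25, adjusted p = 0.00474) passed, against -0.13 (adjusted p = 0.321) and -0.18 (adjusted p = 0.0713) with it. Rcor3 did not pass (-0.19, SE 0.11, adjusted p = 0.188). Sin3b made up 29.2% to 30.3% of the Sin3 pair per kilobase in Mta2_KO and 22.7% to 24.0% in Mta2_WT, and Rcor2 84.5% to 86.8% and 84.9% to 87.6% of the Rcor family. The trophoblast markers summed to 14.5 to 18.9 CPM in Mta2_KO and to 52.0 to 55.4 CPM in Mta2_WT, the naive markers to 3405 to 3526 CPM and to 4650 to 4942 CPM, and the neural progenitor markers to 58.1 to 64.9 CPM and to 20.7 to 28.4 CPM, with 2 of 3 higher and 1 lower. Their part was not tested. The study's list of lines gives a single Mta2_KO line, so line and genotype cannot be told apart.

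In Mta3_del/del, Hdac3 stood at 64.9, 59.4 and 64.6 CPM against 52.3, 42.3 and 50.3 CPM in Mta3_flox/flox (0.33, SE 0.11, adjusted p = 0.0683), Rcor2 at 248, 271 and 262 CPM against 188, 174 and 234 CPM (0.34, SE 0.11, adjusted p = 0.0717) and Kdm1a at 320.2, 302 and 352 CPM against 249.5, 254.5 and 284 CPM (0.25, SE 0.09, adjusted p = 0.0918). Rcor1 stood at 0.20 (adjusted p = 0.165) and Ncor1 at 0.05 (adjusted p = 0.726), and none of the 9 genes passed over all genes. With DESeq2 Rcor2 passed (0.37, adjusted p = 0.0489), and with all 18 single-mutant libraries in 1 fit Kdm1a (0.31, adjusted p = 0.0403) and Hdac3 (0.38, adjusted p = 0.0466) passed. The remaining 4 genes had log2 fold changes of -0.10 to 0.02. Calls over all genes in this comparison moved with single libraries, from 1 higher and 2 lower without Mta3_del/del library 1 to 2066 higher and 2065 lower without library 2, and no member passed in any of them. The fibroblast markers summed to 11.7 to 57.6 CPM in Mta3_flox/flox and to 5.67 to 6.37 CPM in Mta3_del/del, and their part was not tested.

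In Mta1_del/del the 3 libraries of each group spread more widely. Rcor2 stood at 246.5, 205 and 161 CPM against 187, 156.5 and 189.6 CPM in Mta1_flox/flox (0.19, SE 0.17) and Rcor3 at 7.61, 7.97 and 5.75 CPM against 8.57, 9.55 and 6.71 CPM (-0.23, SE 0.26), and the groups overlapped for all 9 genes. The replicate numbers pair these libraries, and Rcor3 was lower in each of the 3 pairs, but with the number as a block it did not pass (-0.23, SE 0.17, adjusted p = 0.981), nor did any other of the 9. Over all genes 50 had an unadjusted p under 0.05, none of them 1 of the 9, and DESeq2 called none of the 9.

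**Figure D4:**
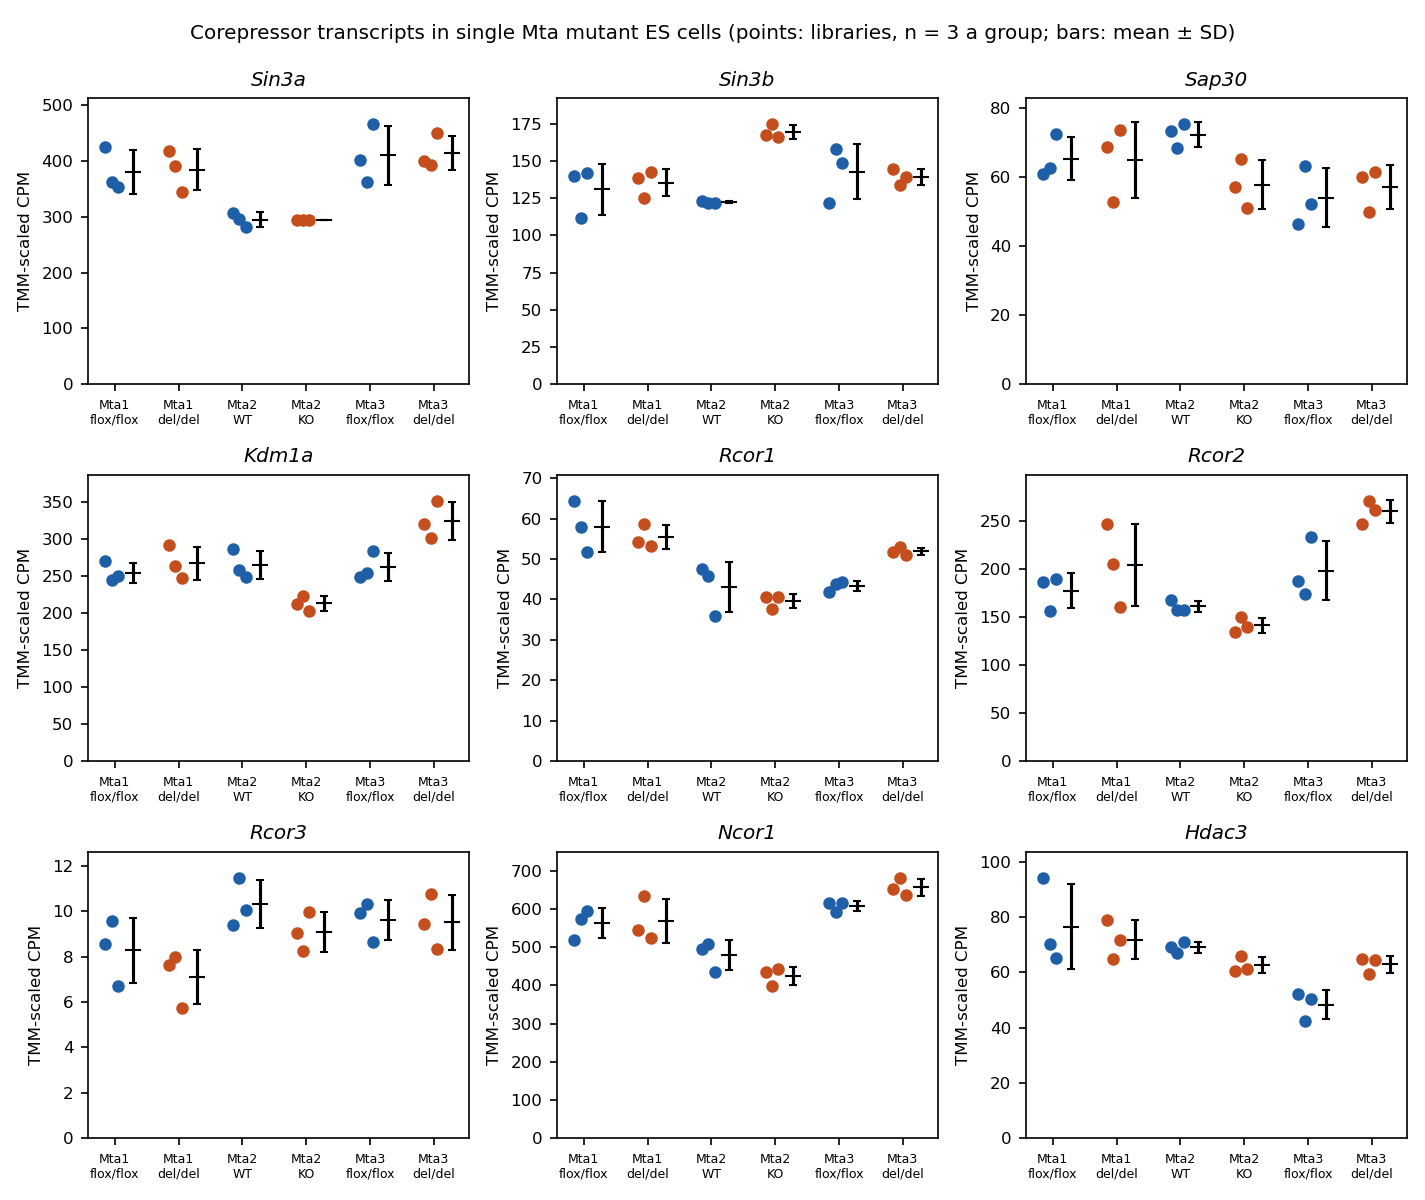
TMM-scaled CPM (counts scaled to library size, linear axes from 0) of the 9 genes in the 18 single-mutant libraries. Points are libraries, reference groups in blue and mutants in orange, and bars the mean ± SD of 3 libraries. Sin3b lies at 166 to 175 CPM in Mta2_KO and at 122 to 123 CPM in Mta2_WT.

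Of the other lists, Mta2_KO had 5 higher and 1 lower of 13 Sin3 subunits and 1 higher and 3 lower of 9 CoREST factors. It had none higher and 4 lower of 5 NCoR factors and 1 higher and 1 lower of the 4 core genes. It had 1 higher and 1 lower of 5 genes of or related to other assemblies and 5 higher and 2 lower of 13 REST target genes. Of all genes, 23.5% were higher and 24.3% lower. Mta3_del/del had 2 higher and none lower of 13 Sin3 subunits, of 5 NCoR factors and of 4 core genes. It had none of 9 CoREST factors, none of 5 genes of or related to other assemblies, and 1 lower of 13 REST target genes. Of all genes, 8.32% were higher and 7.84% lower. No gene of these lists passed in Mta1_del/del. Rest itself did not pass in any single mutant (0.11, -0.06 and 0.34 in Mta2_KO, Mta1_del/del and Mta3_del/del, adjusted p 0.227, 1 and 0.116).

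Between the culture labels, the Control cells changed in 7 of the 9 genes, 6 higher and 1 lower under the label 48 h, against 29.5% higher and 29.0% lower of 21240 genes, and none passed a log2 fold change of 1, as 23.6% of all genes did. Sin3b was higher by 0.59 (SE 0.07, adjusted p = 2.3e-05), Rcor3 by 0.35 (SE 0.10, adjusted p = 0.0143), Sap30 by 0.31 (SE 0.08, adjusted p = 0.00406), Rcor1 by 0.28 (SE 0.05, adjusted p = 0.000909), Rcor2 by 0.24 (SE 0.06, adjusted p = 0.00821) and Ncor1 by 0.22 (SE 0.05, adjusted p = 0.00154), and Sin3a was lower (-0.25, SE 0.07, adjusted p = 0.00761). Kdm1a (-0.01, SE 0.06) and Hdac3 (-0.11, SE 0.05, adjusted p = 0.0814) did not pass. With counts scaled to the spiked-in ERCC RNAs, which moved the median of all genes up by 0.18 and the calls of all genes from 6261 higher and 6158 lower to 5993 and 3664, 4 members were higher (Sin3b, Sap30, Rcor1, Rcor3) and none lower, and Sin3a stood at -0.08 (adjusted p = 0.761). With the libraries of a line summed, Sin3a (adjusted p = 0.0603) and Rcor3 (adjusted p = 0.0723) did not pass, against 22.5% of all genes higher and 22.7% lower. With the line as a block as well all 7 passed (adjusted p 6.47e-05 to 0.0246), against 28.6% higher and 28.9% lower.

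In Mta123KO none of the 9 genes passed between the labels without pairing, with 12.4% of 21505 genes higher and 10.0% lower. DESeq2 called Hdac3 alone (-0.22, adjusted p = 0.0491). In edgeR's test 1 of the 9 had an unadjusted p under 0.05, against 7646 of the 21505 genes. The libraries of a numbered line occur under both labels, and same-numbered libraries deviated together. Whether libraries of the same number belong together beyond sharing a line was not tested. With the replicate number as a block, Sap30 (0.61, SE 0.07, adjusted p = 0.000411) and Rcor1 (0.29, SE 0.06, adjusted p = 0.00817) were higher and Hdac3 lower (-0.21, SE 0.07, adjusted p = 0.0381) labelled 48 h, against 22.7% of all genes higher and 19.8% lower. Sap30 rose in line 1 from 15.3 and 14.1 CPM to 23.5 and 24.9 CPM and in line 2 from 28.2 and 26.6 CPM to 40.6 and 38.1 CPM. That block counts the 2 libraries of a line as separate samples. With the libraries of a line summed and no block, none of 24445 genes was called. With them summed and the line as a block, a comparison added after the data were seen, Sap30 passed (0.62, SE 0.11, adjusted p = 0.0177) and Rcor1 (adjusted p = 0.0997) and Hdac3 (adjusted p = 0.202) did not, against 10.4% of all genes higher and 8.01% lower. With the libraries of line 1 alone, 4 of the 9 genes were higher and 2 lower labelled 48 h, against 24.0% and 21.6% of all genes, and with those of line 2 alone 2 were higher and 1 lower, against 21.1% and 20.2%.

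**Figure D5:**
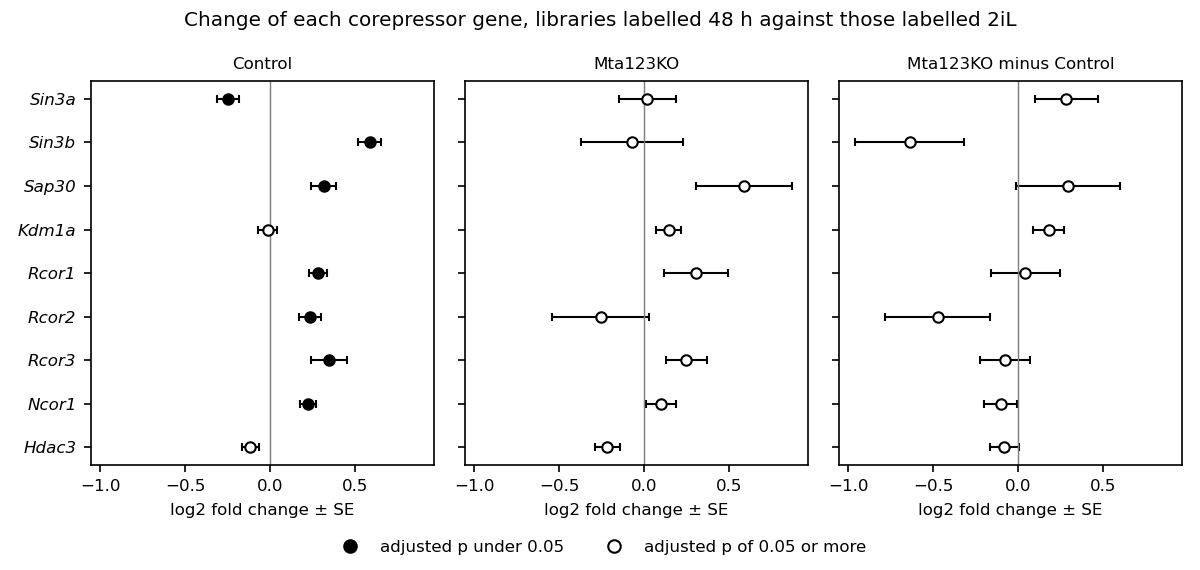
Log2 fold change (linear axis, with standard error) of each gene in libraries labelled 48 h against those labelled 2iL, in Control, in Mta123KO, and as the difference between the 2, without pairing. Filled points have an edgeR adjusted p under 0.05. In Control 7 points are filled, and in the other panels none.

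Whether the change between labels differed between Mta123KO and Control was tested as an interaction over all 16 libraries. Without pairing none of the 9 genes passed (12.5% of 22973 genes higher, 10.6% lower) and DESeq2 called none. In edgeR's test none of the 9 had an unadjusted p under 0.05, against 7963 of the 22973 genes. Scaling to the spiked-in RNAs moved the median of all genes by -0.22 and their calls from 2879 higher and 2427 lower to 1383 and 1981, with none of the 9 called. With the replicate number within each genotype as a block, the difference passed for Sin3b (-0.61, SE 0.08, adjusted p = 0.000133), Sap30 (0.32, SE 0.09, adjusted p = 0.0146) and Sin3a (0.30, SE 0.08, adjusted p = 0.0101), against 19.7% of all genes higher and 17.8% lower. With the libraries of a line summed, none of the 9 passed without a block (adjusted p 0.559 to 0.964, 1.57% of all genes higher and 1.18% lower). With the line as a block of the summed libraries Sin3b passed (-0.61, SE 0.11, adjusted p = 0.0125) and Sin3a (adjusted p = 0.0884) and Sap30 (adjusted p = 0.1) did not, against 10.7% of all genes higher and 8.91% lower. With Mta123KO line 1 alone against both Control lines, the difference passed for 2 genes upward and 1 downward (17.0% and 13.8% of all genes), and with line 2 alone for 1 upward and 3 downward (12.2% and 12.1%). Sin3b, which was higher labelled 48 h in Control, stood at -0.04 (SE 0.06, adjusted p = 0.655) in Mta123KO in the paired comparison, and Sin3a, lower in Control, at 0.04 (SE 0.06, adjusted p = 0.666).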

How the data were processed

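RNA-seq libraries of mouse ES cells were analysed, 16 of Control and Mta123KO cells and 18 of single mutants. Per the study's methods, the authors trimmed reads with Trim Galore, aligned them to GRCm38/mm10 with TopHat2 and counted them per Ensembl gene with featureCounts. The deposited values are raw counts per gene, 1 table per library, and the strand setting is not given in the sources used here. Library sizes were scaled by TMM, and 92 spike-in RNAs (0.58% to 1.0% of counts) were left out of the Control and Mta123KO tables. Genes kept by filterByExpr were tested with edgeR 4.0.16 (quasi-likelihood test, R 4.3.3) on the libraries of the groups compared, with Benjamini-Hochberg adjustment over all genes kept and a threshold of 0.05. DESeq2 1.42.0, other scaling and filters, single lines, summed lines, left-out libraries and a replicate block were the alternatives. The scripts were tested on simulated data.

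Levels are CPM on TMM-scaled totals, and per kilobase of annotated exon (GENCODE vM21). No replicates agreed within counting noise. The replicate numbers name lines in the Control and Mta123KO libraries, and same-numbered libraries deviated together between culture labels (correlations 0.221 to 0.289 in Control, 0.495 to 0.541 in Mta123KO) and in Mta1_del/del (0.445 to 0.641). The members and gene lists were chosen with earlier results of these data known. One gene of the list of other NCoR factors is not reported here and was left out of its counts. All 9 members are named, of the other lists up to 4 genes with the largest change past the threshold in Mta123KO labelled 2iL, then labelled 48 h, and for the 3 members with the largest change the 3 genes with the highest correlation of log2 CPM (prior count 2, mean of at least 1 CPM).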

Additional observations from a re-analysis of the deposited data

Results flagged for a closer look

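In 4 of the 36 groups of 4 libraries examined, 1 library stood apart from the other 3 by more than Dixon's critical value. Chance alone marks about 1 in 20 groups of 4 independent values. These groups hold 2 libraries of each of 2 lines, so that rate need not apply to them. Kdm1a was at 209 CPM in Control library 1_1 labelled 48 h, against 201.1 to 201.5 CPM in the others. Ncor1 was at 318.1 CPM in the same library, against 295.6 to 298.4 CPM. Hdac3 was at 47.66 CPM in Control library 2_1 labelled 48 h, against 51.22 to 51.47 CPM, and Ncor1 at 241.9 CPM in Mta123KO library 2_1 labelled 2iL, against 224.1 to 225.6 CPM.

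The change between culture labels differed between Mta123KO and Control for Sin3a (0.3035 on the log2 scale, adjusted p = 0.0101), Sin3b (-0.6068, adjusted p = 0.000133) and Sap30 (0.3183, adjusted p = 0.0146) in edgeR's test with the replicate number as a block. With the line as the block the values were 0.3026 for Sin3a (adjusted p = 0.00264), -0.6074 for Sin3b (adjusted p = 7.15e-06) and 0.3171 for Sap30 (adjusted p = 0.00488), and Rcor2 also passed at -0.4008 (adjusted p = 0.0271). Without a block none of the 4 passed, with adjusted p from 0.175 (Sin3b) to 0.538 (Sap30). Both blocks count the 2 libraries of a line as separate samples. With the libraries of a line summed and the line as the block, Sin3b passed (-0.6129, adjusted p = 0.0125), and Sin3a (adjusted p = 0.0884), Sap30 (adjusted p = 0.1) and Rcor2 (adjusted p = 0.206) did not. With them summed and no block none of the 9 genes passed.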

How the results depend on the processing

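The replicate number as a block was used to pair same-numbered libraries in the culture comparisons and in Mta1_del/del. With it, the number of the 9 genes called went from 0 to 3 for the labels in Mta123KO and from 0 to 3 for the interaction. It stayed at 7 in Control and at 0 in Mta1_del/del. The share of all genes called went from 22.4% to 42.5%, from 23.1% to 37.5%, from 58.5% to 63.9% and stayed at 0% in the same order. A block on the line, added after the data were seen, gave 3 and 4 for the labels in Mta123KO and the interaction, with 47.7% and 39.8% of all genes called. With the libraries of a line also summed it gave 1 and 1, with 18.4% and 19.6% of all genes called. In the other comparisons the numbers did not pair the libraries, since the correlations of same-numbered deviations were -0.226 to -0.0301 (Mta123KO labelled 2iL), -0.0921 to 0.0194 (labelled 48 h), -0.191 to 0.276 (Mta2_KO) and -0.116 to 0.364 (Mta3_del/del), and the block gave 6, 4, 4 and 0 calls there against 6, 6, 5 and 0. Of all genes it called 46.1%, 46%, 44% and 15.9% there, against 51.3%, 50%, 47.8% and 16.2% without it. Requiring a log2 fold change above 1 as well left 1 gene labelled 2iL, 1 labelled 48 h, 0 in Mta2_KO and 0 in Control between labels. It left 20.6%, 20.0%, 11.3% and 23.6% of all genes. Summing the libraries of a line left 0 labelled 2iL and 1 labelled 48 h, with 15.4% and 17.1% of all genes called. Fitting every library of a set together gave 2 calls in Mta2_KO, 2 in Mta3_del/del, 3 in Control between labels and 2 in Mta123KO between labels. Of all genes that fit called 16.1%, 17.2%, 49.2% and 30.7% there, against 47.8%, 16.2%, 58.5% and 22.4% with only the groups compared. DESeq2 gave 1 in Mta3_del/del and 1 in Mta123KO between labels, and spike-in scaling 4 in Control between labels, 4 in place of 6 labelled 2iL (without Kdm1a and Ncor1) and 4 in place of 6 labelled 48 h (without Kdm1a and Ncor1). DESeq2 called 21.8% and 23.2% of the genes to which it gave an adjusted p. Spike-in scaling called 45.5%, 41% and 36.9% of all genes. With only Mta123KO line 1 or only line 2, 6 and 3 genes were called between labels and 3 and 4 in the interaction, where 45.6% and 41.2% and then 30.8% and 24.3% of all genes were called. Leaving out 1 library gave 5 to 7 calls labelled 2iL, 4 to 6 labelled 48 h, 3 to 6 in Mta2_KO, 7 to 7 in Control between labels, 0 to 1 in Mta123KO between labels, and 0 in Mta1_del/del, in Mta3_del/del and in the interaction. The shares of all genes called were then 43.8% to 51.3%, 43.9% to 49.2%, 39.6% to 49%, 53.8% to 57.1% and 16.6% to 19% in the first 5 of these. They were 0% in Mta1_del/del, 0.0185% to 25.6% in Mta3_del/del and 19.2% to 22.9% in the interaction. The causes were not tested.

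Changes of sign were seen for genes that had not passed. With only Mta123KO line 2, log2 fold changes were -0.15 (Rcor1) and -0.0176 (Hdac3) labelled 2iL, -0.14 (Sin3b), -0.22 (Rcor1) and 0.0126 (Hdac3) labelled 48 h, -0.0908 (Sin3a), 0.0678 (Sin3b) and -0.0884 (Ncor1) between labels, and -0.10 (Rcor1) and 0.0046 (Hdac3) in the interaction. With only line 1 they were 0.14 (Rcor2) between labels and 0.0805 (Ncor1) in the interaction, and with only Control line 2 Kdm1a stood at 0.0599 between labels. Spike-in scaling, which moved the median of all genes by -0.19 labelled 48 h, gave -0.0651 (Rcor1) there, 0.17 (Kdm1a) and 0.0591 (Hdac3) in Control between labels, and -0.19 (Rcor1) and -0.0578 (Kdm1a) in the interaction. In Mta3_del/del Sin3a stood at 0.000974 without a filter on low counts and at 0.016 with all single-mutant libraries fitted together.

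Leaving out 1 library moved the log2 fold change of Rcor1 from -0.0080 to 0.22 and of Hdac3 from -0.0403 to 0.0036 labelled 48 h. In Mta1_del/del it ran from -0.0414 to 0.0792 for Sin3a, from -0.0572 to 0.10 for Sin3b, from -0.12 to 0.11 for Sap30, from -0.0848 to 0.0591 for Ncor1 and from -0.20 to 0.0553 for Hdac3. In Mta2_KO Sin3a ran from -0.0448 to 0.0159, and in Mta3_del/del Sin3a from -0.11 to 0.056, Sap30 from -0.0638 to 0.16 and Rcor3 from -0.17 to 0.0146. Between labels Kdm1a ran from -0.0524 to 0.0132 in Control, and Sin3a from -0.084 to 0.12 and Sin3b from -0.23 to 0.10 in Mta123KO. In the interaction Rcor1 ran from -0.0741 to 0.15. With 2 lines a genotype, the spread between lines sets what these comparisons can resolve.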
